A study of Mus musculus with 11 samples.

Results

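The genes described here are 49 myogenic transcription factors and components of the striated muscle sarcomere, with the receptor, calcium and energy genes of muscle fibres. They were taken by gene symbol from the deposited count tables. The list was chosen with earlier results of these data known, so its shares set against all genes describe this list only. All 49 were among the 29450 genes listed for mouse embryonic fibroblasts (MEFs). In the table of mouse embryonic stem cells (mESCs), which lists 31518 genes, 48 were found, Myf5 being the one without a row. They fall into 9 groups by role: myogenic regulatory factors, upstream factors, MEF2 factors, actins and actinins, myosin heavy chains, myosin light chains, troponins, giant and thick filament proteins, and receptor, calcium release and energy genes.

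Skeletal muscle arises when cells of the somites, marked by PAX3, PAX7 and EYA proteins, switch on the myogenic regulatory factors MYF5, MYOD1, MYF6 and myogenin, which bind E-boxes in muscle promoters together with MEF2 factors. Differentiating myoblasts then build sarcomeres, in which myosin thick filaments pull on actin thin filaments under the control of troponin and calcium, and in which titin and nebulin set the filament lengths. Fibroblasts and stem cells move with non-muscle actins and myosins, and cultures grown from whole embryos can hold myogenic cells beside fibroblasts.

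The study asked how the loss of ATXN7L3, the adaptor of the histone H2B deubiquitylation module of the SAGA co-activator, affects transcription. The series holds poly(A)+ RNA sequencing of untreated cells from 2 WT (Atxn7l3+/+) and 3 Atxn7l3-/- mESC samples and from 3 WT and 3 Atxn7l3-/- MEF samples, all of mixed DBA/2 and C57BL/6 background. The paper states that 3 WT mESC replicates were made and that 1 was excluded after a principal component analysis, as it lay apart. Each line came from its own blastocyst or embryo. The mESCs were kept in 15% foetal calf serum (FCS) with leukaemia inhibitory factor (LIF), PD0325901 at 1 µM and CH99021 at 3 µM, after early passages on feeder cells. MEFs were grown in 10% FCS from E10.5 embryos without head and gut, so trunk tissue, which contains developing muscle and heart, went into the cultures. The allele was a germline knockout brought to homozygosity by crossing heterozygous mice, so it was not restricted to a cell type or time.

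Levels are given as CPM, counts scaled to a common library size after TMM normalization of the 11 libraries, whose totals ran from 34515342 to 49602605 counts. In 1 library, 3 counts were taken here as the floor of detection, which covers counting error only. Scaled by the raw library totals, without the TMM factors, 3 counts were worth 0.0605 to 0.0869 CPM. With the TMM factors, 3 counts of Myod1 were 0.057 CPM in WT mESC replicate 1 and 0.0937 CPM in WT MEF replicate 2. Atxn7l3, the targeted gene, stood at 196 and 202 CPM in WT mESCs and at 0.831 to 3.33 CPM in Atxn7l3-/- mESCs. In MEFs it was 86.5 to 117 CPM in WT libraries and 55.4 to 73.3 CPM in Atxn7l3-/- libraries, every one below the WT range (log2 fold change −0.74, SE 0.21, adjusted p = 0.0715, not passed; adjusted p-values throughout are Benjamini-Hochberg values of the quasi-likelihood test of edgeR over all genes tested). Counts per gene do not show which exons those MEF reads cover. By western blot the paper found no detectable ATXN7L3 protein in Atxn7l3-/- cells of either type. The 11 fibroblast markers summed to 18154 to 57573 CPM in WT MEFs and 35180 to 50646 CPM in Atxn7l3-/- MEFs, against 1375 to 5136 CPM in mESCs, and the 5 pluripotency markers to 2131 to 2859 CPM in mESCs, so the sums set the cell types apart as labelled. Single fibroblast markers moved both ways between MEF genotypes, 7 of the 11 downward (log2 fold change −5.12 for Lum and 3.47 for Dcn), and 0 passed. WT MEF replicate 1 stood apart on the muscle genes: it was the highest WT library for 39 of the 49 genes, against 37.7% of the 27436 genes with any count in WT MEFs. It was also the lowest WT library in summed fibroblast markers (18154 CPM) and the highest in the 4 endothelial markers (76.6 CPM, against 5.87 and 16.9). Values without it are therefore given beside the MEF results that it moved most.

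In Atxn7l3-/- MEFs most of the muscle genes were lower than in WT MEFs. For 32 of the 49 genes every Atxn7l3-/- library lay below every WT library, whereas this held for 14.6% of all 29450 listed genes. The opposite arrangement was found for 1 gene, Actn3, against 12.7% of all genes. Without WT MEF replicate 1 the numbers were 33 genes, with 20.6% of all genes as the background, and 3 genes (Six4, Actn3 and Myl7), with 17.1% of all genes. In WT MEFs 41, 31 and 32 of the 49 genes reached 1 CPM in replicates 1, 2 and 3, and in Atxn7l3-/- MEFs 16, 15 and 15 did. In these bulk samples fewer muscle cells and less RNA per muscle cell cannot be told apart.

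The edgeR filter on low counts kept 37 of the 49 genes in MEFs, and several of these passed it only because the WT libraries were high, so the following counts describe the tested genes and carry no further weight. With the adjusted p at most 0.05, 12 of the 37 were lower, where 4.39% of all 15958 tested genes were lower, and 1 was higher, where 5.01% of all were. The median log2 fold change of the 37 was −3.04, and that of all tested genes −0.06. Unadjusted p was under 0.05 for 26 lower and 2 higher genes. The number called lower changed with the libraries used. It was 3 (Chrna1, Eya1 and Myh3) without WT replicate 1, where 191 of all 16268 tested genes were lower. It was 9 without WT replicate 2 (395 of all 16553) and 10 without Atxn7l3-/- replicate 3 (1049 of all 16769). It was 0 without WT replicate 3 (77 of all 16414), Atxn7l3-/- replicate 1 (90 of all 16695) or Atxn7l3-/- replicate 2 (86 of all 16644). In the fits with 0 calls, 26 to 28 genes still had an unadjusted p under 0.05 and a lower level. DESeq2 on all 6 libraries called 27 lower and 2 higher, where 2219 of all 15958 genes were lower and 1724 higher. Actn3, the 1 gene called higher, was not called without WT replicate 2 or 3 or without Atxn7l3-/- replicate 1 or 2. Without Atxn7l3-/- replicate 3, 3 genes were called higher (Actn3, Myl7 and Tnnt2), where 989 of all 16769 genes were.

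**Figure D1:**
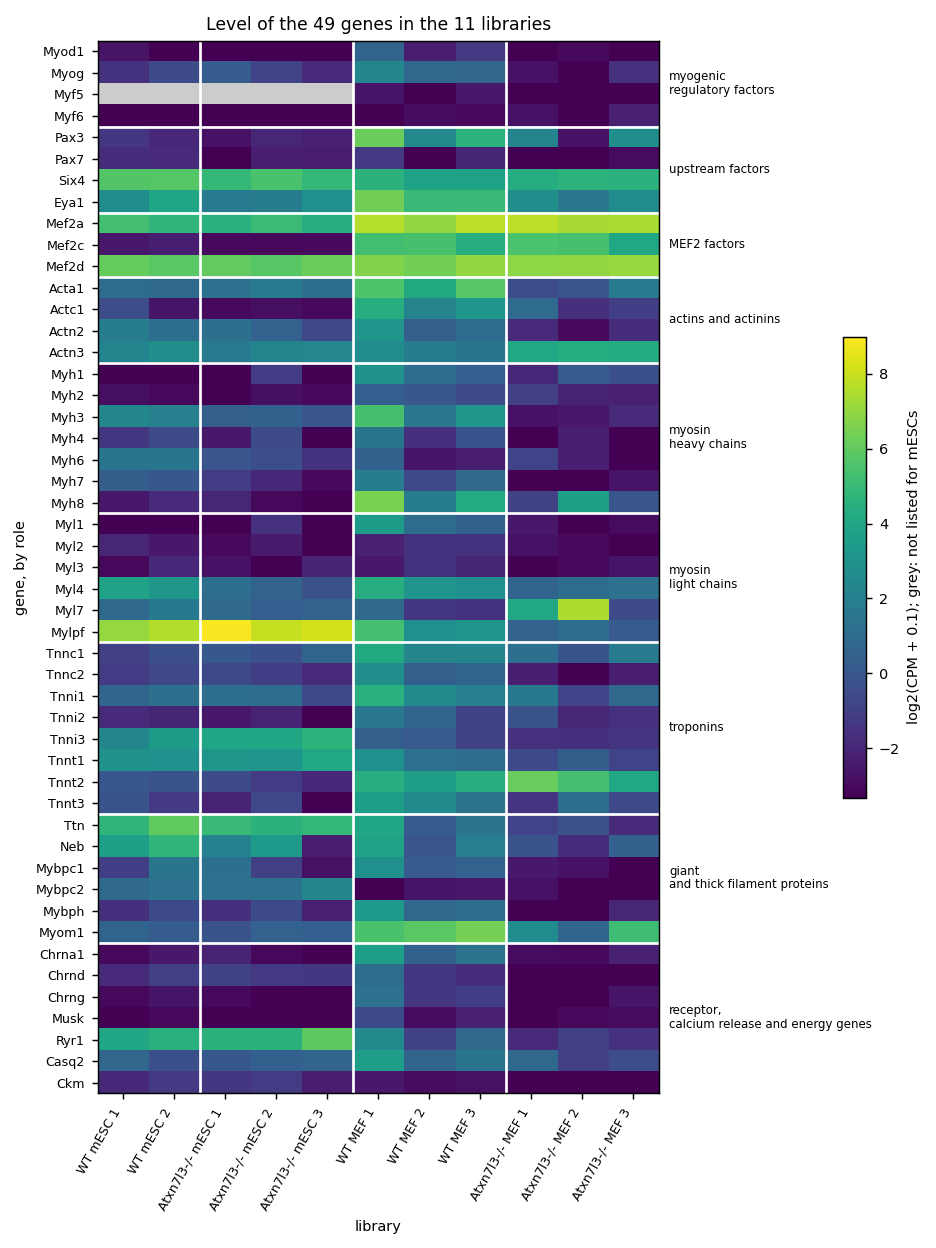
Levels of the 49 genes (rows, in 9 groups by role) in the 11 libraries (columns), as log2(CPM + 0.1) on the colour scale; grey marks Myf5, which is not listed for mESCs. The WT MEF columns are brighter than the Atxn7l3-/- MEF columns in most rows, most of all in replicate 1, while Mylpf is brightest in the mESCs and the MEF2 rows look alike in both MEF genotypes.

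To show promoters of genes that lay on either side of 0 in MEFs, the 300 bases around the start site (250 before to 50 after) of 4 of them are shown, taken from RefSeq on GRCm38.p6. Chrna1 and Acta1 were lower in Atxn7l3-/- MEFs, Mylpf was lower there while its level in Atxn7l3-/- mESCs was above that in WT mESCs, and Myl7 had its highest levels in Atxn7l3-/- MEFs. Capitals mark matches on either strand of the E-boxes CAGCTG and CACCTG, the MCAT box CATTCC, the TATA box TATAAA, the MEF2 site and the CArG box, an SRF binding sequence. The windows are chr2:73580289-73580588 (minus strand) for Chrna1, chr8:123894726-123895025 (minus) for Acta1, chr7:127211358-127211657 (plus) for Mylpf and chr11:5898733-5899032 (minus) for Myl7.
Chrna1: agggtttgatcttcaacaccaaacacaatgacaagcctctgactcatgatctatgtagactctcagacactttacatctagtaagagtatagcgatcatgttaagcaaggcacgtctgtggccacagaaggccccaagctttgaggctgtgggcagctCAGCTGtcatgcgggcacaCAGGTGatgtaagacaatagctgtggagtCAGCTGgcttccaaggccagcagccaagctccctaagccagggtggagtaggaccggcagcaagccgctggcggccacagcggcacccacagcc
Acta1: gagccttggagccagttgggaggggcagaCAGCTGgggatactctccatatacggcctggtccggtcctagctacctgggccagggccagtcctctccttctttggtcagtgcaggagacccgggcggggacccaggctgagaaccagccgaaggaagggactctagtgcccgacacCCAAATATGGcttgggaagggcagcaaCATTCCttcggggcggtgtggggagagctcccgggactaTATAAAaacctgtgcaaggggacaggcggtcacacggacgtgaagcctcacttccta
Mylpf: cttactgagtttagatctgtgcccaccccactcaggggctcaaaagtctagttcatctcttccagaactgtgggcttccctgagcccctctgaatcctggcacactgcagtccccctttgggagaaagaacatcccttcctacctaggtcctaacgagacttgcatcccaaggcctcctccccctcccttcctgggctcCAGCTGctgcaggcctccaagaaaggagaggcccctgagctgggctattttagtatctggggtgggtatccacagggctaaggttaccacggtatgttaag
Myl7: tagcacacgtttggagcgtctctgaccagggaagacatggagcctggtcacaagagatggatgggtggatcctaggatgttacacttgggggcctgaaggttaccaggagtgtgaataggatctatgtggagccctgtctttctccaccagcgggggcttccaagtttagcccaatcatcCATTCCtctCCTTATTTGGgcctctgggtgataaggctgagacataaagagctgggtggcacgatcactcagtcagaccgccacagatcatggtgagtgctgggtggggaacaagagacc
Chrna1 held 2 matches of CAGCTG, beginning 92 and 44 bases before the start site, with a CACCTG match between them. Acta1 held CAGCTG, a CArG box, an MCAT box and a TATA box in that order, Mylpf a CAGCTG 51 bases before the start, and Myl7 an MCAT box next to a CArG box.

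Of the 49 genes, 40 had 47 such windows in the table of 32851. CAGCTG was found in 15 of the 47 and in 16.3% of all windows, and CACCTG in 11 of the 47 and 20.2% of all. The MCAT box was found in 14 of the 47 (14.7% of all), the TATA box in 15 (13.6%), the MEF2 site in 6 (3.19%) and the CArG box in 6 (1.63%). A match describes the letters in the window and is not a measured binding site.

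The myogenic regulatory factors were at low levels in every library, and Myod1 and Myog lay lower in each Atxn7l3-/- MEF library than in any WT one. Myog (ENSMUSG00000026459, mm10 chr1:134289989-134292548), which drives the terminal differentiation of myoblasts, was at 4.97, 1.65 and 1.56 CPM in WT MEF replicates 1 to 3 and at 0.053, 0 and 0.239 CPM in the Atxn7l3-/- MEFs. The groups did not overlap, and the mean fell from 2.73 ± 1.94 to 0.0975 ± 0.126 CPM (SD, n = 3 each). Its log2 fold change was −4.82 (SE 1.19, adjusted p = 0.0527), which missed the threshold, and −4.02 without WT replicate 1 (adjusted p = 0.0907). Myod1 (ENSMUSG00000009471, chr7:46376474-46379099), the factor that commits cells to the muscle fate, had 71, 3 and 13 counts in WT MEFs and 0, 1 and 0 in Atxn7l3-/- MEFs. It did not pass the filter. The ratio of summed counts was 84.8 with a 95% counting interval of 14.8 to 3386, and 25.1 (3.9 to 1053) without WT replicate 1. Myf5 had 3, 0 and 3 counts in WT MEFs and none in Atxn7l3-/- MEFs, at the floor of detection in both. Myf6 (MRF4) had 0, 1 and 1 counts in WT MEFs, 2, 0 and 4 in Atxn7l3-/- MEFs and none in the mESCs, so it was at or near 0 throughout.

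Among the factors upstream of them, Eya1 passed the test. Eya1 (ENSMUSG00000025932, chr1:14168954-14310235), a co-activator of homeodomain factors such as Six4, was at 79.5, 32.4 and 32.6 CPM in WT MEFs and 6.94, 2.97 and 6.22 CPM in Atxn7l3-/- MEFs. It fell from 48.2 ± 27.1 to 5.38 ± 2.12 CPM (log2 fold change −3.19, SE 0.53, adjusted p = 0.0219), and remained called without WT replicate 1 (−2.59, adjusted p = 0.0454). Pax3, which marks the progenitors of limb and trunk muscle and also neural crest, was at 72.3, 5.4 and 25.3 CPM in WT MEFs and 4.69, 0.0511 and 7.03 CPM in Atxn7l3-/- MEFs. The groups overlapped, the log2 fold change was −3.15 (SE 1.46) and the adjusted p was 0.183, against −1.96 and 0.397 without WT replicate 1. Pax7 had 22 counts over the WT MEFs and 1 over the Atxn7l3-/- MEFs. Six4, the homeodomain partner of EYA proteins and per length of transcript the highest of this group over the 11 libraries, was at 13.6 to 24.2 CPM in WT MEFs and 19.9 to 24.6 CPM in Atxn7l3-/- MEFs (log2 fold change 0.38, SE 0.32, adjusted p = 0.428).

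The MEF2 factors, which act with the myogenic factors but are also used by many other cells, overlapped between genotypes. Mef2d, per length the highest of them, was at 103, 82 and 129 CPM in WT MEFs and 121, 123 and 139 CPM in Atxn7l3-/- MEFs (log2 fold change 0.27, SE 0.22, adjusted p = 0.422). Mef2a (125 to 222 CPM in WT and 169 to 218 CPM in Atxn7l3-/- MEFs) and Mef2c (21.6 to 42.5 and 16.1 to 45.1 CPM) overlapped between genotypes, with log2 fold changes of 0.01 (SE 0.26) and −0.01 (SE 0.44).

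Acta1 and Actn2 fell and Actn3 rose. Acta1 (ENSMUSG00000031972, chr8:123891769-123894751), the actin of skeletal muscle thin filaments, was at 49, 17.6 and 55.5 CPM in WT MEFs and 0.662, 0.844 and 3.14 CPM in Atxn7l3-/- MEFs. Here replicate 3 and not replicate 1 was the highest WT library. Its mean fell from 40.7 ± 20.2 to 1.55 ± 1.38 CPM (log2 fold change −4.72, SE 0.81, adjusted p = 0.0234), and without WT replicate 1 the log2 fold change was −4.54 with an adjusted p of 0.0575. Actc1, the heart actin that embryonic skeletal muscle also uses, was 13.5-fold lower on the group means (log2 fold change −3.79, SE 0.99, adjusted p = 0.0586) and 8.03-fold lower without WT replicate 1 (−3.02, adjusted p = 0.11), and passed with the replicate number as a block (−4.05, adjusted p = 0.0157). Actn2, the alpha-actinin of Z-discs in heart and all skeletal fibres, fell from 8.52, 1.22 and 1.9 CPM to 0.185, 0.0256 and 0.209 CPM (log2 fold change −4.80, SE 1.1, adjusted p = 0.0447; −3.46 and 0.0734 without WT replicate 1).

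Actn3 (ENSMUSG00000006457, chr19:4861223-4877909), the alpha-actinin of fast fibres, moved the opposite way. It was at 6.07, 3.65 and 2.63 CPM in WT MEFs and at 16.1, 19.5 and 18.8 CPM in Atxn7l3-/- MEFs, all 3 of which lay above the WT range. The rise was 4.4-fold on the group means (4.12 ± 1.77 to 18.1 ± 1.81 CPM; log2 fold change 2.12, SE 0.40, adjusted p = 0.0306), and 2.53 on the log2 scale without WT replicate 1 (adjusted p = 0.0368). Its mESC levels of 3.43 to 6.65 CPM overlapped the WT MEF range and lay below the Atxn7l3-/- MEFs.

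Of the 7 myosin heavy chains, Myh3 and Myh7 passed the test. Myh3 (ENSMUSG00000020908, chr11:67078300-67102291), the embryonic heavy chain, had 2082, 96 and 376 counts in WT MEFs and 2, 3 and 6 counts in Atxn7l3-/- MEFs, which is 42.4, 3.00 and 9.17 CPM against 0.053, 0.0767 and 0.18 CPM. The group means differed 177-fold, and 59.0-fold without WT replicate 1. The log2 fold change was −7.47 (SE 1.27, adjusted p = 0.0229), and −5.85 (adjusted p = 0.0402) without WT replicate 1. Myh7, the heavy chain of slow fibres and of the heart ventricle, had 274 counts over the WT MEFs and 2 over the Atxn7l3-/- MEFs, a ratio of 133 with a counting interval of 36.6 to 1108 (log2 fold change −6.56, SE 1.28, adjusted p = 0.0325). Without WT replicate 1 that ratio was 73.0 (19.6 to 611), with a log2 fold change of −5.77 and an adjusted p of 0.0621.

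The perinatal and adult fast chains lie beside Myh3 on chromosome 11, and reads of these closely related genes may be split between them. Myh8, the perinatal chain, had the widest spread of the group, at 91.6, 3.68 and 18.7 CPM in WT MEFs and 0.424, 12.3 and 0.868 CPM in Atxn7l3-/- MEFs, where replicate 2 overlapped the WT range (log2 fold change −3.10, SE 1.57, adjusted p = 0.215; −1.30 and 0.568 without WT replicate 1). Myh1 and Myh2, adult fast chains, were 5.46-fold and 4.25-fold lower on the group means with no overlap and missed the threshold (adjusted p = 0.136 and 0.0749), and Myh2 passed with the replicate block (adjusted p = 0.0482). Without WT replicate 1 the ratios were 2.43 for Myh1 and 3.58 for Myh2. Myh4, the fastest chain, fell below the filter, with 133, 7 and 31 counts in the WT MEFs and 4 in all over the Atxn7l3-/- MEFs. Myh6, the chain of the heart atrium, had 62, 2 and 4 counts in WT and 17, 4 and 0 in Atxn7l3-/- MEFs. The groups overlapped, and the ratio of WT to Atxn7l3-/- mean CPM turned from 2.57 to 0.434 without WT replicate 1.

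Of the 6 light chains, Myl1, Mylpf and Myl4 fell, and Myl7 lay on the other side of 0. Myl1 (chr1:66924295-66945404), the alkali light chain of fast fibres, was at 10.4, 1.97 and 1.32 CPM in WT MEFs and 0.0795, 0 and 0.0299 CPM in Atxn7l3-/- MEFs (log2 fold change −6.89, SE 1.33, adjusted p = 0.0312; −5.37 and 0.0509 without WT replicate 1). Mylpf (ENSMUSG00000030672, chr7:127208890-127214298), the regulatory light chain of fast fibres, was at 40.3, 7.06 and 8.44 CPM against 1.4, 1.99 and 1.08 CPM. It was 12.5-fold lower on the group means (log2 fold change −3.67, SE 0.81, adjusted p = 0.0413) and 5.19-fold lower without WT replicate 1 (−2.38, adjusted p = 0.0563). Myl4, the alkali light chain of the atrium and of embryonic skeletal muscle, fell from 12.0 ± 7.36 to 1.93 ± 0.44 CPM (log2 fold change −2.65, SE 0.55, adjusted p = 0.0377). It did not pass with the replicate block (−2.48, adjusted p = 0.0506) or without WT replicate 1 (−1.99, adjusted p = 0.0635). Myl2 and Myl3, the ventricular light chains, had 24 and 18 counts over the WT MEFs and 3 counts each over the Atxn7l3-/- MEFs and were not tested.

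Myl7 (ENSMUSG00000020469, chr11:5896637-5898782), the regulatory light chain of the atrium, was at 1.79, 0.281 and 0.244 CPM in WT MEFs and at 16.8, 177 and 0.628 CPM in Atxn7l3-/- MEFs. Replicate 2 held 6929 of the 7583 counts of the knockout group, and replicate 3 lay within the WT range. The log2 fold change of 6.32 (SE 1.99) did not pass (adjusted p = 0.0867). Without WT replicate 1 every Atxn7l3-/- library was above the remaining WT libraries, and the adjusted p was 0.113.

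The troponins, the calcium switch of the thin filament, lay below the WT range in every Atxn7l3-/- MEF library for 6 of 8 genes, of which Tnnc2 passed the test. Tnnc2, the calcium-binding troponin C of fast fibres, was at 6.62, 1.22 and 1.49 CPM in WT MEFs and 0.106, 0 and 0.0898 CPM in Atxn7l3-/- MEFs (log2 fold change −5.56, SE 1.2, adjusted p = 0.0402; −4.32 and 0.0664 without WT replicate 1). Its exons overlap those of Ube2c on the other strand. Tnnc1, the slow and cardiac troponin C and per length the highest troponin in WT MEFs, was at 17.8, 4.78 and 4.71 CPM against 2.2, 0.818 and 3.17 CPM (log2 fold change −2.16, SE 0.77, adjusted p = 0.112; −1.19 and 0.259 without WT replicate 1). Per length Tnni3 was the highest troponin in both mESC groups and Tnnt2 in Atxn7l3-/- MEFs. Tnni1, Tnni3, Tnnt1 and Tnnt3 did not overlap either and had log2 fold changes of −2.82 to −1.89 with adjusted p of 0.0692 to 0.109 (−2.09 to −1.47 and 0.136 to 0.256 without WT replicate 1), of which Tnni1, the slow inhibitory subunit, passed with the replicate block (−2.59, adjusted p = 0.0488). Tnni2, the fast inhibitory subunit, was at 0.415 to 2.95 CPM in WT MEFs and 0.153 to 0.795 CPM in Atxn7l3-/- MEFs. Tnnt2, the troponin T of heart, was the exception in direction, at 21.6, 12.1 and 21.3 CPM in WT MEFs and 70.3, 41.2 and 16 CPM in Atxn7l3-/- MEFs, with overlap in replicate 3 (log2 fold change 1.18, SE 0.52, adjusted p = 0.17).

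**Figure D2:**
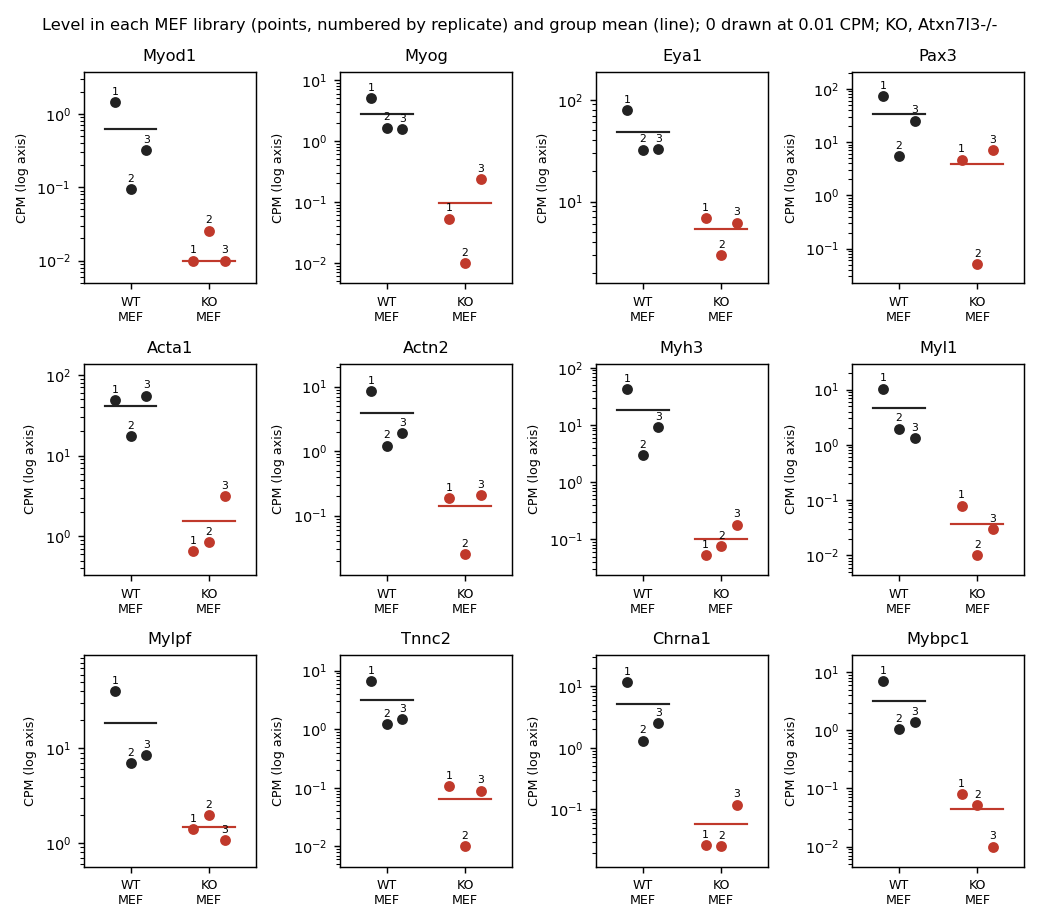
Levels in CPM (log axis) of 12 of the genes in the 3 WT and 3 Atxn7l3-/- (KO) MEF libraries; points are libraries numbered by replicate, lines are group means, and 0 is drawn at 0.01 CPM. Except for Pax3, where WT replicate 2 (5.4 CPM) is below KO replicate 3 (7.03 CPM), the groups do not overlap, and WT replicate 1 is the highest library of all panels but Acta1.

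Among the thick filament and giant proteins, Mybpc1, the slow myosin-binding protein C, was at 7.11, 1.06 and 1.39 CPM in WT MEFs and 0.0795, 0.0511 and 0 CPM in Atxn7l3-/- MEFs (log2 fold change −6.11, SE 1.23, adjusted p = 0.0347; −4.69 and 0.0551 without WT replicate 1). Mybph, the related protein H, had 605 counts over the WT MEFs and 5 over the Atxn7l3-/- MEFs, all of them in replicate 3 (log2 fold change −6.46, SE 1.51, adjusted p = 0.0467; −5.13 and 0.0794 without WT replicate 1). Ttn (titin), the elastic protein that anchors thick filaments to the Z-disc, was at 15.8, 1.06 and 2.61 CPM in WT and 0.45, 0.741 and 0.18 CPM in Atxn7l3-/- MEFs, without overlap, and missed the threshold (log2 fold change −3.86, SE 1.15, adjusted p = 0.0775; −2.00 and 0.14 without WT replicate 1). Neb (nebulin), the ruler of the thin filament, overlapped between genotypes (log2 fold change −3.04, SE 1.13, adjusted p = 0.122; −1.63 and 0.289 without WT replicate 1). Myom1 (myomesin), which ties thick filaments together at the M-band, was the highest of the group per length over the 11 libraries, at 43.4, 58.2 and 86.8 CPM in WT MEFs and 6.2, 1.51 and 36 CPM in Atxn7l3-/- MEFs (log2 fold change −2.09, SE 1.03, adjusted p = 0.205). Here WT replicate 3 was the highest and replicate 1 the lowest WT library. Mybpc2, the fast protein C, had 5 counts in WT and 2 in Atxn7l3-/- MEFs.

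Chrna1, Chrnd and Chrng, subunits of the muscle acetylcholine receptor, which receives the signal of the motor nerve, were close to 0 in Atxn7l3-/- MEFs. The beta subunit gene Chrnb1, which is not one of the 49, was at 15.3, 3.71 and 10 CPM in WT and 39.9, 29.9 and 19.2 CPM in Atxn7l3-/- MEFs (log2 fold change 1.58, SE 0.54, adjusted p = 0.103, not passed). Chrna1 (ENSMUSG00000027107, chr2:73563215-73580338), the subunit that binds acetylcholine, was at 11.8, 1.31 and 2.56 CPM in WT MEFs and 0.0265, 0.0256 and 0.12 CPM in Atxn7l3-/- MEFs. The group means differed 91.2-fold (log2 fold change −6.50, SE 1.22, adjusted p = 0.0291), and 33.8-fold without WT replicate 1 (−5.03, adjusted p = 0.0475). Chrnd, the delta subunit, had 95, 9 and 8 counts in WT MEFs and none in any Atxn7l3-/- MEF library, so no ratio is given. Its WT mean was 0.804 ± 0.981 CPM, and 0.238 CPM without WT replicate 1. Chrng, the gamma subunit of the embryonic receptor, had 143 counts in WT and 2 in Atxn7l3-/- MEFs, a ratio of 69.7 (counting interval 18.9 to 581), with an adjusted p of 0.0566, and of 19.6 (4.89 to 171) without WT replicate 1. Musk, the kinase that clusters these receptors, had 28, 1 and 5 counts in WT and 2 in all in Atxn7l3-/- MEFs.

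Ryr1, the calcium release channel of skeletal muscle, was at 5.5, 0.437 and 1.61 CPM in WT MEFs and 0.185, 0.409 and 0.239 CPM in Atxn7l3-/- MEFs (log2 fold change −3.19, SE 0.98, adjusted p = 0.0813; −1.87 and 0.153 without WT replicate 1). Casq2, the calcium store protein of heart and slow fibres and per length the highest of this group over the 11 libraries, overlapped between genotypes (1.47 to 12.1 against 0.409 to 1.7 CPM; log2 fold change −2.60, SE 0.97, adjusted p = 0.122; −1.17 and 0.309 without WT replicate 1), and passed with the replicate block (−2.26, adjusted p = 0.038). Ckm, the creatine kinase of mature fibres, had 4, 1 and 2 counts in WT MEFs and none in Atxn7l3-/- MEFs, under the floor in mean level.

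**Figure D3:**
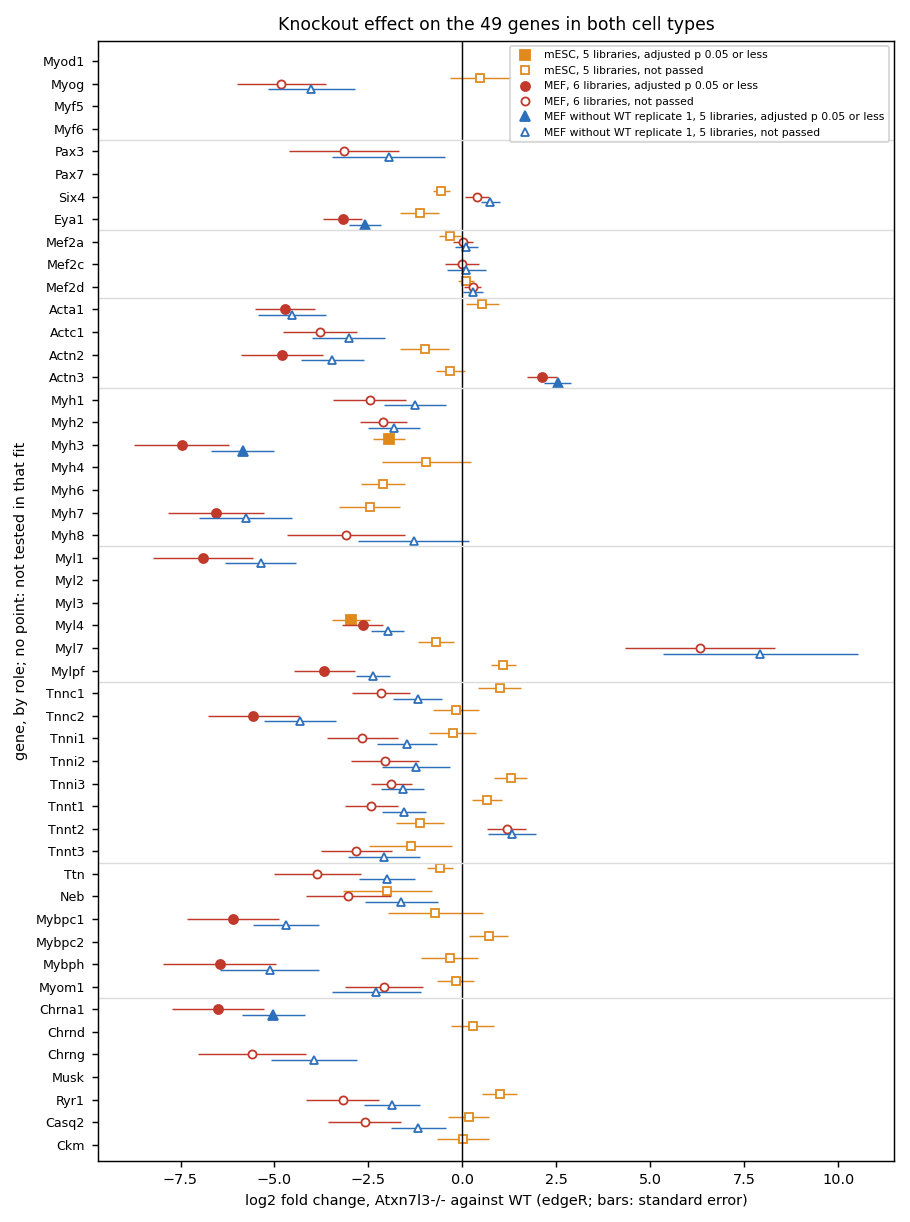
Log2 fold change of Atxn7l3-/- against WT (x axis, bars are standard errors) for each gene (y axis, by role) in mESCs, in MEFs and in MEFs without WT replicate 1; filled symbols have an adjusted p at most 0.05, and genes without a symbol were not tested in that fit. Most MEF values lie left of 0 and move toward it without WT replicate 1, Actn3 and Myl7 lie to the right, and the mESC values are nearer to 0 (median −0.32).

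In mESCs the genotype effect on these genes was smaller and of mixed sign. Of 32 genes that passed the filter, 2 were lower with an adjusted p at most 0.05, where 3.88% of all 17800 tested genes were lower, and 0 were higher, where 3.08% of all were. By edgeR 5 lower and 2 higher genes had an unadjusted p under 0.05. DESeq2 called 3 lower and 2 higher, where 1684 and 1752 of all 17800 genes were. The median log2 fold change was −0.32 over the 32 genes and 0.04 over all tested genes. Without Atxn7l3-/- replicate 1 edgeR called 0 of these genes, with 8 at an unadjusted p under 0.05. In that fit 0 of all 17530 tested genes were higher and 3 lower. Without Atxn7l3-/- replicate 2 it called 4, where 1061 of all 17495 genes were higher and 1181 lower. Without WT replicate 1 or 2 only 1 WT library was left, and the median log2 fold change of the genes was −0.50 and −0.05. The fibroblast markers were also unequal between these libraries, at 1375 and 2394 CPM in WT and 3019, 3262 and 5136 CPM in Atxn7l3-/- mESCs in sum, with 2 of 10 tested called higher (Col1a1 and Postn). Their part in the results was not tested.

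Myl4 and Myh3, both chains of embryonic muscle, were the 2 lower genes. Myl4 was at 13.5 and 9.15 CPM in WT mESCs and 2.1, 1.43 and 0.719 CPM in Atxn7l3-/- mESCs (log2 fold change −2.96, SE 0.51, adjusted p = 0.0279). Myh3 was at 5.02 and 4.08 CPM against 1.23, 1.3 and 0.876 CPM (log2 fold change −1.96, SE 0.43, adjusted p = 0.0412). Myh6, Myh7 and Myh4, the other heavy chains tested, missed the threshold. Myh6 was at 2.66 and 2.65 CPM against 0.247 to 0.845 CPM (log2 fold change −2.12, SE 0.58, adjusted p = 0.0677), and Myh7 had 61 and 46 counts against 14, 8 and 1 (adjusted p = 0.0987). Neb was at 12.2 and 27.3 CPM against 4.23, 10.2 and 0.0898 CPM, a wide spread in the knockout (log2 fold change −2.00, SE 1.18, adjusted p = 0.29).

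Mylpf was the most abundant of all the genes in mESCs. It had 7006 and 9439 counts in WT mESCs and 18134, 11401 and 13089 counts in Atxn7l3-/- mESCs, which is 133 and 194 CPM against 464, 244 and 294 CPM. All knockout libraries were above the WT libraries, the log2 fold change was 1.09 (SE 0.33) and the adjusted p was 0.0805. On the scale of CPM per kb of exon length its mean level was 154 in WT and 314 in Atxn7l3-/- mESCs. Other genes whose knockout libraries all lay above the WT libraries included Ryr1 (15.3 and 22.4 against 24 to 60 CPM, log2 fold change 0.99, adjusted p = 0.192), Tnni3, the cardiac troponin I (4.9 and 10.9 against 15.3 to 24.8 CPM, 1.28, adjusted p = 0.102) and Tnnt1, the slow troponin T (7.77 and 7.3 against 8.78 to 16.4 CPM, 0.65, adjusted p = 0.307). Exons of Tnni3 overlap those of Dnaaf3 on the same strand, and reads there cannot be assigned to one of them. The myogenic regulatory factors stayed at 0 to 1.05 CPM. Myog had 42 counts over the WT and 71 over the Atxn7l3-/- mESCs (log2 fold change 0.48, SE 0.80, adjusted p = 0.722), Myod1 3 counts in WT replicate 1 alone, and Myf6 none.

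**Figure D4:**
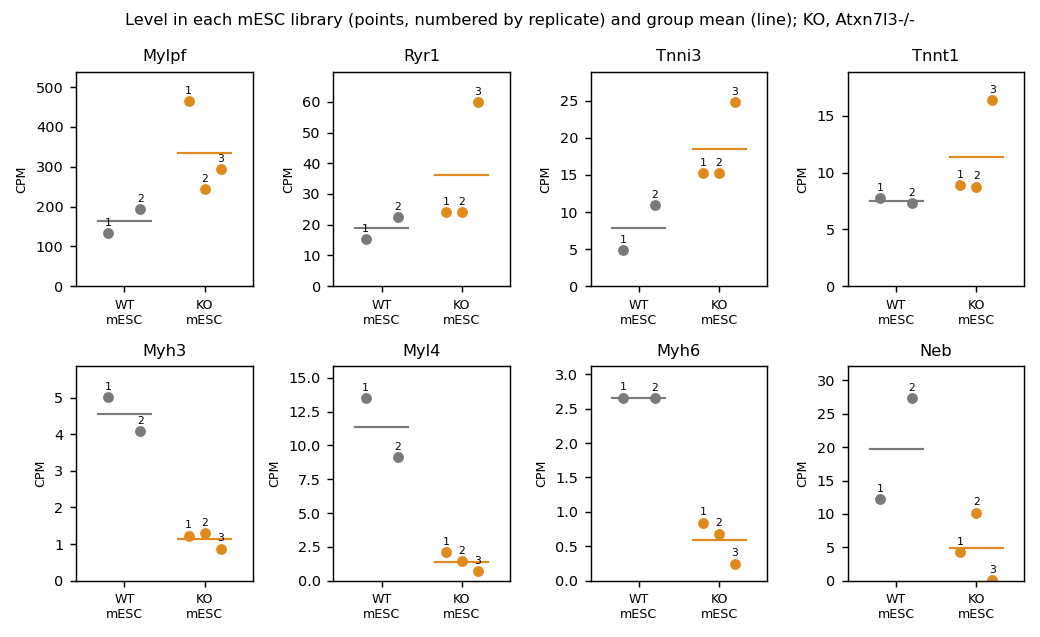
Levels in CPM (linear axis from 0) of 8 of the genes in the 2 WT and 3 Atxn7l3-/- (KO) mESC libraries; points are libraries numbered by replicate and lines group means. In the upper row (Mylpf, Ryr1, Tnni3, Tnnt1) every KO library is above the WT libraries, and in the lower row (Myh3, Myl4, Myh6, Neb) every KO library is below them; of the 8, Myh3 and Myl4 passed the test.

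Whether the knockout effect differed between the cell types was tested with an interaction term over 19326 genes, of which 44 of the 48 shared genes were kept. The effect in MEFs was more negative than in mESCs for 8 of the 44 (5.27% of all genes) and more positive for 2 (6.14% of all). Some of the 44, Myl1 among them, passed the filter only through the WT MEF libraries. The counts of calls in this fit therefore describe the tested genes and carry no further weight. The 8 were Myl1, Chrnd, Myh3, Tnnc2, Acta1, Mylpf, Ryr1 and Tnni3. For Mylpf the difference was −4.67 on the log2 scale (SE 0.94, adjusted p = 0.0162), between an effect of −3.67 in MEFs and 1.09 in mESCs. Acta1 gave −5.21 (SE 0.95, adjusted p = 0.0114), Ryr1 −4.10 (SE 1.17, adjusted p = 0.0463) and Tnni3 −3.10 (SE 0.73, adjusted p = 0.0267), each with a log2 fold change below 0 in MEFs and above 0 in mESCs. Myh3 was lower in both cell types and differed by −5.45 (SE 1.32, adjusted p = 0.0282), and Tnnc2 differed by −5.31 (SE 1.43, adjusted p = 0.0398). The values for Myl1 (−11.68, SE 2.95, adjusted p = 0.0353) and Chrnd (−8.32, SE 1.99, adjusted p = 0.0334) rest on groups with 0 counts and depend on the prior count, so they are no measure of size.

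The 2 genes with a more positive effect in MEFs were Actn3 (2.5, SE 0.56, adjusted p = 0.0217) and Myl7 (7.12, SE 2.05, adjusted p = 0.0483), the latter with its counts mainly in 1 library. Myl4, which fell in both cell types, did not differ detectably (0.37, SE 0.77, adjusted p = 0.775). The total of 10 was also 10 without WT MEF replicate 1, with 3 more positive and 7 more negative (1239 and 1087 of all 18985). Six4 was added (1.35, SE 0.35, adjusted p = 0.0368) and Ryr1 was lost (−2.81, SE 0.89, adjusted p = 0.0636). The total was 3 without Atxn7l3-/- MEF replicate 1 (617 more positive and 556 more negative of all 19149), Atxn7l3-/- MEF replicate 2 (578 and 492 of 19159) or Atxn7l3-/- mESC replicate 1 (494 and 393 of 19119). It was 6 and 5 without Atxn7l3-/- mESC replicates 2 (1386 and 945 of 19214) and 3 (582 and 493 of 19152), and 19 with DESeq2 (2074 and 2216 of 19326). Without WT mESC replicate 1 or 2 only 1 WT mESC library was left. The median difference of the genes was then −2.66 and −2.72, against −2.50 with all libraries.

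**Figure D5:**
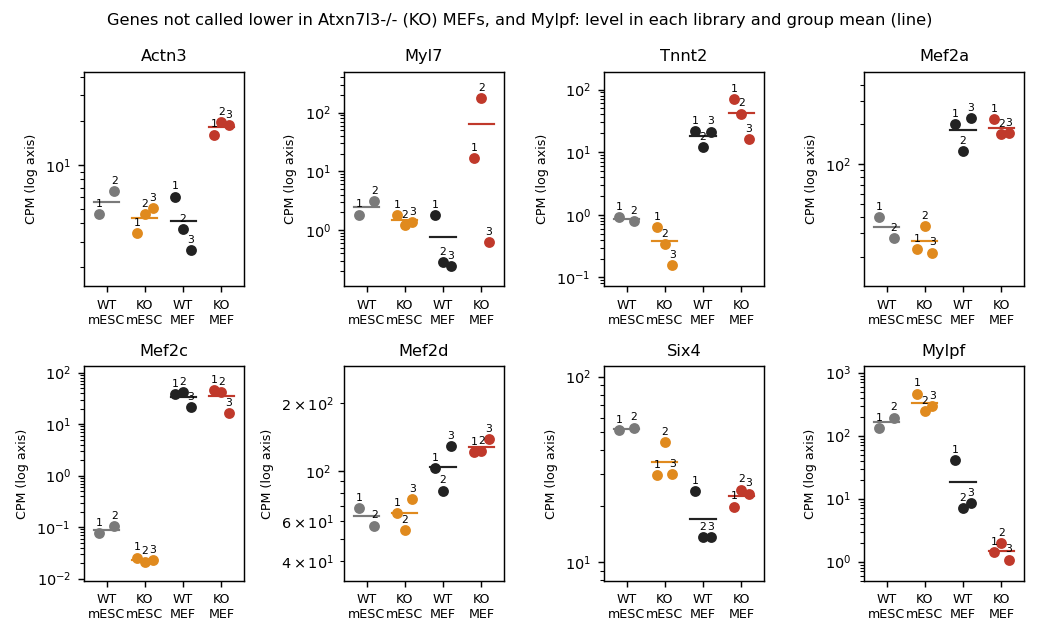
Levels in CPM (log axis) of 7 genes not called lower in Atxn7l3-/- (KO) MEFs, with Mylpf, in all 4 groups; points are libraries numbered by replicate and lines group means. Actn3 is above the WT range in all KO MEFs, Myl7 ranges from 0.628 to 177 CPM among KO MEFs, the MEF2 genes overlap between genotypes in MEFs, and the Mylpf points lie higher in KO than WT mESCs but lower in KO than WT MEFs.

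The level of these genes in WT MEFs was also set against that in WT mESCs. Of the 44 genes tested, 21 were higher in WT MEFs, where 26.8% of all 19326 genes were, and 7 were lower, where 27.1% of all were. Without WT MEF replicate 1 the numbers were 16 and 8 of 42, where 4803 and 4889 of all 18985 genes were called. Without WT mESC replicate 1 or 2 only 1 WT mESC library was left. The median log2 difference of the tested genes was then 2.19 and 2.79, against 2.21 with all libraries. Genes higher in WT MEFs included Mef2c (log2 difference 8.53, SE 0.68, adjusted p = 9.35e-06), Pax3 (7.23, SE 1.78, adjusted p = 0.00613), Chrna1 (6.62, SE 1.51, adjusted p = 0.00409), Myom1 (5.60, SE 1.18, adjusted p = 0.00261) and Acta1 (4.45, SE 0.79, adjusted p = 0.000954). The 7 lower genes were Six4, Mylpf, Tnni3, Ttn, Mybpc2, Ryr1 and Ckm. Ttn stood at 26.9 and 63.1 CPM in WT mESCs against 15.8, 1.06 and 2.61 CPM in WT MEFs (log2 difference −2.79, SE 0.89, adjusted p = 0.022), and Mybpc2 at 1.84 and 2.28 CPM against 0 to 0.0732 CPM (−5.50, SE 1.01, adjusted p = 0.0012). Myog (2.69, adjusted p = 0.0656) and Myh3 (2.00, SE 0.91, adjusted p = 0.0848) did not pass.

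On the scale of CPM per kb, by which levels of different genes can be set side by side, Acta1 led in WT MEFs with a mean of 26.5, followed by Mef2d and Mylpf at 17.5 each. In Atxn7l3-/- MEFs Myl7 led with 110, a mean carried by replicate 2, and was followed by Mef2d at 21.3, Mef2a at 12.7 and Actn3 at 6.25. Mylpf stood at 1.4 there, and Acta1 at 1.01. Among non-muscle members of the same families, Myh9, a non-muscle heavy chain, had a mean of 120 in WT and 60.6 in Atxn7l3-/- MEFs, against 3.00 and 0.017 for Myh3, and Actb (beta-actin) 1112 and 911. Actg1 (gamma-actin) had 1.75 and 1.93. How reads that match several genes were counted was not examined, so these Actg1 values are not taken as its level. The median log2 fold change of 8 such relatives in MEFs was −0.76, and the smallest adjusted p among them were those of Myl6 (0.0844) and Myl9 (0.0933).

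A further list of 52 skeletal muscle genes outside the 49 gave 36 tested in MEFs, of which 9 were lower (4.39% of all tested genes) and 1 higher (5.01% of all), with a median log2 fold change of −2.08. Some of the 36, Mymk among them, passed the filter only through the WT libraries, so these counts carry no further weight. Without WT replicate 1, in a fit chosen after seeing the data, the median was −1.85. In that fit 1 was lower (Cdh15), where 191 of all 16268 genes were, and 2 higher (Unc45b and Smyd1), where 273 of all were. Among the lower genes were Cdh15, Mymk, Casq1, Cacna1s, Cav3, Myom3, Rapsn and Eya2. Mymk (myomaker), the membrane protein by which myoblasts fuse, had 289, 19 and 34 counts in WT MEFs and 1, 1 and 3 in Atxn7l3-/- MEFs (log2 fold change −5.66, SE 1.25, adjusted p = 0.0415; −3.85 and 0.055 without WT replicate 1), and Cdh15, the cadherin of muscle cells, 114, 15 and 41 against 2, 1 and 1 (−5.04, SE 0.84, adjusted p = 0.0221; −4.23 and 0.0454). Rapsn, which anchors acetylcholine receptors, was nearly equal among the WT libraries (1.04, 1.28 and 1.05 CPM against 0 to 0.106 CPM; −4.07, SE 0.85, adjusted p = 0.0378; −4.11 and 0.0717 without WT replicate 1). The gene that rose was Unc45b, the chaperone that folds muscle myosin, from 1.02, 0.843 and 0.463 CPM in WT to 92.1, 65 and 63.2 CPM in Atxn7l3-/- MEFs (log2 fold change 6.53, SE 0.41, adjusted p = 0.00198; 6.82 and 0.00858 without WT replicate 1), without overlap. In mESCs 1 of 36 tested genes of this list was higher (Rapsn) and 1 lower (Myom2).

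Of 14 further heart muscle genes, 9 were tested in MEFs, and 1 was higher (Hspb7, a small heat shock protein of muscle) and 1 lower (Ryr2, the calcium channel of heart), with a median log2 fold change of −0.23. Hspb7 was at 3.79, 10.8 and 11.1 CPM in WT and 57.4, 85.8 and 31.8 CPM in Atxn7l3-/- MEFs (log2 fold change 2.75, SE 0.53, adjusted p = 0.0309). Without WT replicate 1 neither passed (Hspb7 2.40, adjusted p = 0.0552; Ryr2 −2.75, adjusted p = 0.0779). In mESCs 1 of 7 tested was higher (Ryr2) and 1 lower (Mybpc3).

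Markers of other cell types moved with genotype in the MEFs as well. The 4 mesothelial markers, those of the lining of body cavities, summed to 12.9 to 35.1 CPM in WT and 2510 to 3689 CPM in Atxn7l3-/- MEFs, with 3 of 4 called higher (Msln, Upk3b and Wt1, also without WT replicate 1) and Krt19 not. The 7 smooth muscle markers summed to 8723 to 15736 CPM in WT and 1654 to 5618 CPM in Atxn7l3-/- MEFs, with 1 of 7 called lower. The 4 neural markers summed to 59.1 to 223 and 0.665 to 33.3 CPM, with 2 of 3 tested called lower, and the 4 epithelial markers to 1.00 to 2.90 and 6.90 to 35.3 CPM, with 1 of 3 tested called higher. The 4 endothelial markers summed to 5.87 to 76.6 CPM in WT and 3.29 to 20.5 CPM in Atxn7l3-/- MEFs, and the 4 macrophage markers to 145 to 307 and 103 to 611 CPM. None of the markers listed for MEFs was at 0 throughout a group. The part of these cell types in the levels of the muscle genes was not tested.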

How the data were processed

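Poly(A)+ RNA sequencing of 5 mESC and 6 MEF samples was used, which leaves out the 1 WT mESC replicate that the authors had excluded. The authors deposited, for each cell type, a table of raw read counts per gene, which were used here, and a normalized signal, the counts divided by size factors and by the median transcript length in kb, which was not tested. The submitters' processing notes name bcl2fastq 2.17.1.14, cutadapt, STAR 2.5.3a, HTSeq 0.6.1p1, DESeq2 1.16.1 and mm10. The strand setting and annotation of the counting are not given in the sources used here. The log2 fold change and p-value columns of the tables hold the authors' own comparison and were not used.

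The 49 genes and all lists were chosen with earlier results of these data known. Counts were tested with edgeR 4.0.16 in R 4.3.3 (filterByExpr, TMM, quasi-likelihood F-test, Benjamini-Hochberg adjustment over all genes tested, threshold 0.05), in mESCs and MEFs separately and, for the 26398 genes of both tables, in 1 fit of 11 libraries with an interaction term. CPM and CPM per kb (GENCODE M21 exon length) used the TMM factors of the 11 libraries. Cell type and experiment cannot be told apart in comparisons across tables. Full statistics were given for the 4 myogenic regulatory factors, each gene that passed a genotype test or the interaction test, and the highest gene per length in each role group; other genes were named after their values were seen. Where a group held 1 to 3 counts, the ratio of depth-scaled counts is given with an exact 95% interval, which covers counting error only. On simulated counts the MEF fit recovered 92 of 94 genes changed 16-fold and 43 of 89 changed 4-fold with 3 false calls among 15574 genes. The simulated libraries had equal means within a genotype and a spread taken from the overall trend. WT MEF replicate 1 was at a median of 3.75 times the mean of the other WT libraries for the 49 genes (0.972 for all tested genes). These rates therefore do not carry over to the 49 genes.

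Replicates were lines of separate embryos or blastocysts. Same-numbered MEF libraries, which come from different embryos, deviated together from their group means (r = 0.473, 0.161 and 0.24 over genes; the numbers come from the labels), and the fit with the replicate number as a block was therefore set beside a result where it changed the call. Alternatives were DESeq2 1.42.0, other size factors and filters, a GC correction, the fold and level thresholds of the study, and leaving out each library. Fits in which all 11 libraries shared 1 estimate of the spread were also made. Fits without WT MEF replicate 1 were set beside the results because that library stood apart.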

Additional observations from a re-analysis of the deposited data

Results flagged for a closer look

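The interaction test found a knockout effect in MEFs different from that in mESCs for 10 of the genes, given as the MEF effect minus the mESC effect on the log2 scale. The difference was 2.5 for Actn3 and 7.12 for Myl7. It was −5.21 for Acta1, −5.45 for Myh3, −4.67 for Mylpf, −5.31 for Tnnc2, −4.10 for Ryr1 and −3.10 for Tnni3. It was −8.32 for Chrnd, whose Atxn7l3-/- MEF libraries all had 0 counts, and −11.68 for Myl1, whose WT mESC libraries both had 0 counts. Without WT MEF replicate 1, Ryr1 was not called (−2.81, adjusted p = 0.0636). Without WT mESC replicate 1 or 2 only 1 WT mESC library was left, and the median difference of the tested genes of the set was −2.66 and −2.72.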

How the results depend on the processing

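Against 12 of 37 genes called lower in MEFs (701 of all 15958), 19 of 49 were with no filter on low counts (987 of all 29450). With at least 10 counts in every library it was 4 of 17 (332 of all 13167), and by DESeq2 27 of 37 (2219 of all 15958). A GC correction gave 7 of 37 (517 of all 15958) and the fit of all 11 libraries 21 of 44 (2056 of all 19326). Leaving out 1 library gave 0 to 10, where 77 to 1049 of all tested genes were lower. The 1 gene called higher became 2 with no filter, by DESeq2 and in the fit of all 11 libraries, where 909, 1724 and 1513 of all were. It became 0 to 3 without 1 library, where 120 to 989 of all were. With the replicate block 15 were lower and 1 higher in MEFs, where 1355 and 877 of all 15958 genes were. The 2 calls in mESCs became 7 with no filter (1390 higher and 1605 lower of all 31107) and 5 by DESeq2 (1752 and 1684 of all 17800). They became 1 with the thresholds of the study (491 and 342 of all 17800) and 1 in the fit of all 11 libraries (144 and 302 of all 19326). Without 1 Atxn7l3-/- library there were 0 to 4, where 0 to 1061 of all were higher and 3 to 1181 lower. Fits with 1 WT library left are not counted here. The same-numbered mESC libraries did not deviate together (r = 0.00777 and −0.172), and the replicate block left 1 call there. The 10 calls for the difference between cell types became 4 with at least 10 counts in every library, where 13 genes were tested. Of all 11887 genes in that fit, 1039 were more positive and 1006 more negative. DESeq2 gave 19 calls, where 2074 and 2216 of all 19326 were called. Leaving out 1 MEF or 1 Atxn7l3-/- mESC library gave 3 to 14 calls, where 494 to 1531 of all tested genes were more positive and 393 to 1609 more negative. The 28 calls between WT MEFs and WT mESCs became 9 with at least 10 counts in every library, where 13 genes remained to be tested, and 14 to 29 without 1 library. The 32 genes whose Atxn7l3-/- MEF libraries all lay below WT became 33 to 38 without 1 library. That share of all listed genes rose from 14.6% to between 16.3% and 21.8%. The 1 gene above became 1 to 3, while the share of all rose from 12.7% to between 14.5% and 19.5%. Unless the numbers of genes or libraries differed, the cause was not tested. Over 26 single results, 390 refits kept the direction in every case; 137 lost the call, and 4 gained it, the others staying on the same side of the threshold. Genes near the floor of 3 counts, Myf5, Myf6, Mybpc2 and Ckm among them in MEFs, allow no statement on a change at this depth.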
